A study of Mus musculus with 5 samples.

Results

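The CCT chaperonin (also called TRiC) is the ring-shaped machine of the cytosol that folds newly made proteins inside a closed chamber with energy from ATP. Each ring is built from 8 different but related proteins, encoded in the mouse by Tcp1, Cct2, Cct3, Cct4, Cct5, Cct6a, Cct7 and Cct8, and every subunit has a fixed neighbour, so the complex needs all of them. Its best known clients are actin and tubulin, and it also folds WD-repeat proteins such as the G protein beta subunits and the cell cycle regulator Cdc20. Prefoldin hands unfolded chains to it, and phosducin-like proteins bind it as cofactors. The 8 subunit genes were chosen by their symbols, out of 22180 named genes on the array, by a rule that uses no measured value. For each gene 1 feature was taken, the one naming only that gene with the highest mean over all arrays. The complex was picked for description with earlier results of these data known.

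The values come from 5 Affymetrix mouse arrays of hematopoietic stem cells (HSCs), the marrow cells that renew the blood. Stem and progenitor cells of C57BL/6 mice, the strain of both groups, were cultured for 24 h with 5 µM all-trans retinoic acid (ATRA, the ligand of the retinoic acid receptors; 2 arrays) or with DMSO, its solvent and the control (3 arrays), and the HSCs were sorted by flow cytometry afterwards. The labels give no age, number of animals or statement that the arrays stand for separate cultures, so the p-values reflect the scatter among these 5 arrays, which could be technical scatter alone. All values are deposited log2 expression levels, a difference is ATRA minus DMSO on that scale, and adjusted p-values are from limma (a linear model fitted across all genes, Benjamini-Hochberg adjustment over all 22180 genes, threshold 0.05).

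The ATRA arrays stood apart from the DMSO arrays over the whole array, and this touches every value below. The SD over all features was 1.77 in ATRA replicate 1 and 1.49 in ATRA replicate 2, against 1.96 to 1.97 in the DMSO arrays. Over all features the DMSO arrays correlated at 0.97 to 0.98 with each other (Pearson). ATRA replicate 1 correlated with them at 0.81 to 0.83 and ATRA replicate 2 at 0.60 to 0.64. The 2 ATRA arrays correlated at 0.73. The cause was not tested. The higher the level of a gene in DMSO, the lower it tended to be with ATRA, more so in replicate 2. Of the HSC markers measured, 8 of 8 lay above the median feature in both groups. Of all 22180 genes, 12626 had a mean over all arrays at or above it. Both ATRA values lay below all DMSO values for 7 of 8 markers. That held for 29.2% of all genes and 82.0% of genes with a DMSO mean of 8 or more. In limma 5 of 8 markers were called lower, against 15.5% of all genes and 52.8% of genes with such a DMSO mean. After the level trend described below was removed it was 0 of 8, against 1.01% of all genes. Kit, the stem cell factor receptor, was at 8.32 and 7.06 in the ATRA arrays, against 10.90 to 10.97 in the DMSO arrays, and its difference was -0.59 with the trend removed (limma adjusted p = 0.256). Mecom was at 7.12 and 6.04, against 8.48 to 9.07, and differed by -0.65 with the trend removed (limma adjusted p = 0.171). Procr, at 7.68 and 7.13 against 7.60 to 7.85, differed by -0.30 as deposited (limma adjusted p = 0.291). With the trend removed it was at 0.50. The mean log2 level of the 8 neutrophil and monocyte markers was 6.45 and 6.07 in the ATRA arrays, against 5.81 to 6.19 in the DMSO arrays, and that of the 6 T and NK cell markers was 6.18 and 6.41, against 5.66 to 5.87. For the 5 mast cell and basophil markers it was 5.16 and 5.27, against 4.42 to 4.76, for the 5 B cell markers 5.51 and 5.96, against 5.29 to 5.39, for the 4 megakaryocyte markers 7.98 and 7.94, against 8.43 to 8.70, and for the 2 erythroid markers 6.18 and 7.10, against 6.79 to 7.01. In limma, 1 neutrophil and monocyte marker and 1 T and NK cell marker were called higher, against 6.48% of all genes, and 1 megakaryocyte marker lower. Genes at low levels were higher with ATRA in general, with a median difference of 0.56 for DMSO means from 4 to 5 and 0.45 from 5 to 6. With the trend removed, the median difference was -0.01 for neutrophil and monocyte, -0.12 for B cell, -0.02 for mast cell and basophil and 0.25 for T and NK cell markers. It was 0.58 for megakaryocyte and 0.04 for erythroid markers. In that limma fit 1 megakaryocyte marker and 1 T and NK cell marker were called higher, against 2.28% of all genes, and no megakaryocyte marker was called lower. The part of these shifts in the results on CCT was not tested. In sorted cells, fewer cells of a type and less RNA per cell cannot be told apart.

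All 8 CCT subunit transcripts were lower in both ATRA arrays than in any DMSO array. The differences ranged from -1.59 for Cct3 to -3.18 for Cct8, with a median of -2.67, and Cct3, Cct4, Cct7 and Cct8 passed the test. Of all genes, 15.5% were called lower and 6.48% higher (21.9% in all), 29.2% had both ATRA values below all 3 DMSO values and 33% above, and the median difference was 0.16. The CCT subunits are abundant transcripts, however, with DMSO means from 8.15 to 11.49. Among the 4450 genes with a DMSO mean of 8 or more, 52.8% were called lower and 82.0% had both ATRA values below all DMSO values. The share of CCT subunits called, 4 of 8, is thus near that of genes at comparable levels.

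**Figure D1:**
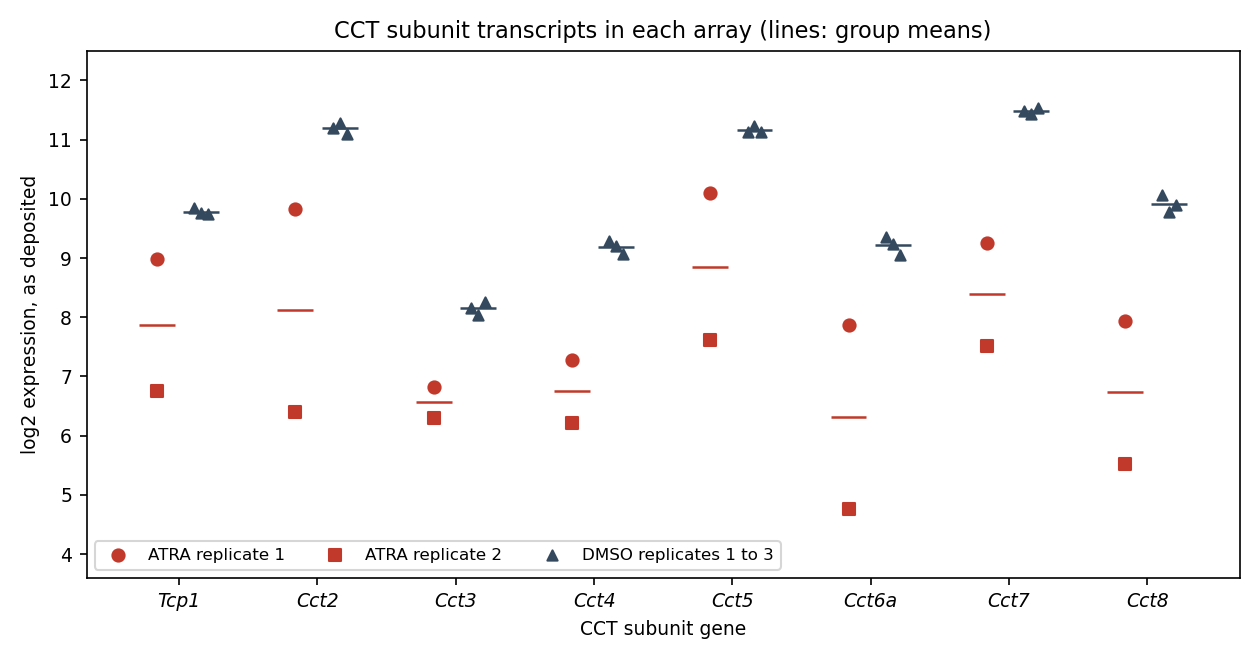
Deposited log2 expression (vertical axis) of each CCT subunit gene in every array. Circles and squares are ATRA replicates 1 and 2, triangles are the 3 DMSO arrays, and short lines are group means. For all 8 genes both ATRA values lie below the DMSO values, and ATRA replicate 2 lies below replicate 1.

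The subunits differ in how tightly they bind ATP. In the yeast complex, the counterparts of Tcp1, Cct2, Cct4 and Cct5 bind ATP strongly and those of Cct3, Cct6a, Cct7 and Cct8 weakly. Among the strong binders, Cct4 (chromosome 11, the delta subunit) was at 7.28 and 6.22 in the ATRA arrays, against 9.29, 9.20 and 9.06 in the DMSO arrays. It fell by 2.44 (SE 0.35, adjusted p = 0.0166, n = 2 ATRA and 3 DMSO arrays), which is 5.41-fold lower. Its ATRA arrays lay 1.06 apart, the least among the strong binders. Tcp1 (chromosome 17), the alpha subunit after which the family is named, was at 8.99 and 6.76 in the ATRA arrays, against 9.84, 9.76 and 9.74 in the DMSO arrays. The difference of -1.91 did not pass (SE 0.69, adjusted p = 0.114). Cct2 (chromosome 10, the beta subunit) was at 9.83 and 6.40 with ATRA, against 11.19, 11.28 and 11.09 with DMSO. Its ATRA arrays lay 3.43 apart, more than those of any other subunit, and the difference of -3.07 did not pass (SE 1.05, adjusted p = 0.103). Cct5 (chromosome 15, the epsilon subunit) was at 10.09 and 7.61 in the ATRA arrays, against 11.13, 11.23 and 11.12 in the DMSO arrays. Its difference of -2.31 had an SE of 0.76 (adjusted p = 0.0964).

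Among the weak ATP binders, Cct3 (chromosome 3, the gamma subunit) was at 6.82 and 6.31 in the ATRA arrays, against 8.16, 8.04 and 8.25 in the DMSO arrays. It fell by 1.59 (SE 0.20, adjusted p = 0.0132), the smallest difference of the 8 subunits and the one with the smallest p, and its ATRA arrays lay 0.51 apart. Cct7 (chromosome 6, the eta subunit) was at 9.26 and 7.51 with ATRA, against 11.49, 11.44 and 11.54 with DMSO. It fell 8.59-fold (log2 difference -3.10, SE 0.54, adjusted p = 0.0256). Cct8 (chromosome 16, the theta subunit) was at 7.94 and 5.52 in the ATRA arrays, against 10.06, 9.78 and 9.90 in the DMSO arrays. This was the largest fall among the subunits, 9.06-fold (log2 difference -3.18, SE 0.75, adjusted p = 0.0474, and adjusted p = 0.113 after quantile normalization). Cct6a (chromosome 5, the zeta subunit) was at 7.86 and 4.76 with ATRA, against 9.36, 9.24 and 9.05 with DMSO. Its difference of -2.90 did not pass (SE 0.95, adjusted p = 0.0956), with ATRA arrays 3.10 apart. Differences ran from -1.91 to -3.07 in the strong and from -1.59 to -3.18 in the weak ATP binders, so these ranges overlapped.

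A second feature names 2 of the genes. For Cct6a it was at 6.80 and 7.20 in the ATRA arrays, against 7.28, 7.46 and 7.28 in the DMSO arrays, a difference of -0.34 (SE 0.19, limma adjusted p = 0.256 over all 41345 features). The features of Cct6a therefore disagreed in size, and the mean of both gave a difference of -1.62 (adjusted p = 0.0606). The second feature of Tcp1 was at 3.40 and 3.57 in the ATRA arrays, against 3.73, 3.27 and 3.35 in the DMSO arrays, far below the median feature of 6.07, and gave a difference of 0.03 (adjusted p = 0.909 over all features).

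ATRA replicate 2 was lower than replicate 1 for 8 of 8 subunits, as it was for 84.1% of genes with a DMSO mean of 8 or more and for 43.4% of all genes. Relative to the DMSO means, the subunits differed by -0.79 (Tcp1) to -2.23 (Cct7) in replicate 1, with a median of -1.35, and by -1.84 (Cct3) to -4.79 (Cct2) in replicate 2, with a median of -3.76. The SD of these differences among the 8 subunits was 0.49 in replicate 1 and 0.98 in replicate 2. In DMSO, each subunit varied little, with an SD over the 3 arrays of 0.05 to 0.16. The 2 ATRA values of a subunit lay 0.51 to 3.43 apart, against DMSO ranges of 0.10 to 0.31. The limma fit takes 1 variance for both groups of a gene, so its SEs, intervals and calls may understate the uncertainty. Without any one of DMSO replicates 1, 2 and 3, no subunit and no gene on the array passed the adjusted threshold in limma. At an unadjusted p under 0.05 were 4 of 8 subunits each time, against 5991, 6065 and 5907 of all 22180 genes. Leaving out ATRA replicate 1 or 2 left a lone ATRA array, whose own scatter cannot be estimated. The median difference of the subunits was then -3.76 or -1.35.

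Because the ring needs its subunits together, each was also set against the mean of the other 7 in the same array, as a description with no test. This makes no allowance for DMSO level, which was lowest for Cct3 (8.15). In replicate 2 the median difference was -1.44 for genes at the level of Cct3, against -3.48 for genes at that of Cct2. Tcp1 fell short of the common decline in both ATRA arrays, by 0.81 in replicate 1 and 0.69 in replicate 2. Cct7 lay further down than the others in both (-0.83 and -0.40), and so did Cct8 (-0.54 and -0.88). Cct3 stayed near the others in replicate 1 (0.20) and lay 2.03 above them in replicate 2, whereas Cct2 was at 0.16 and -1.33 and Cct6a at 0.17 and -0.95. Cct4 was at -0.46 and 0.75, and Cct5 at 0.49 and 0.08. Tcp1, Cct3 and Cct5 thus lay above the mean of the others in both ATRA arrays, Cct7 and Cct8 below it in both, and Cct2, Cct4 and Cct6a on different sides of it.

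**Figure D2:**
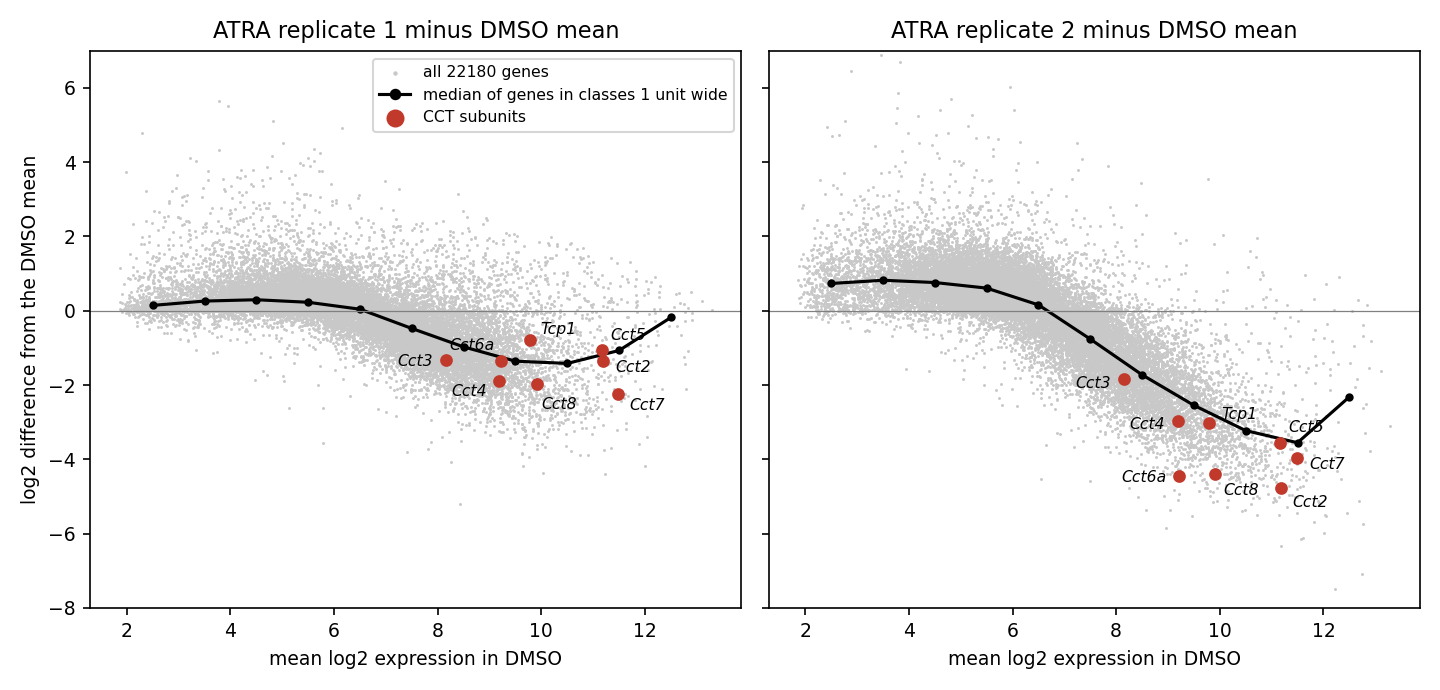
Log2 difference of each ATRA array from the DMSO mean (vertical axes) against the mean log2 level in DMSO (horizontal axes). Grey points are all 22180 genes, the black line joins medians of genes in classes 1 unit wide, and red points are the CCT subunits. The subunits lie at levels where the black line is below 0, near -1.36 in replicate 1 and -2.55 in replicate 2 for DMSO means from 9 to 10.

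How far the subunits departed from other genes of their own level was described with the genes within 0.25 of each subunit's DMSO mean. The median difference of such genes was -1.15 for the level of Cct3 and -2.48 for that of Cct7. Of the 8 subunits, 6 lay below that median. Cct6a lay at percentile 5.43 of the 810 genes at its level (difference -2.90, against a median of -1.81), and Cct8 at percentile 8.68 of 403 genes (-3.18, against -2.18). Cct4, Cct3, Cct7 and Cct2 lay at percentiles 19.0, 23.2, 23.9 and 25.5. Cct5 (percentile 52.6) and Tcp1 (63.9) lay above the middle of their levels. Tcp1 differed by -0.79 in ATRA replicate 1, against a median of -1.44 for genes at its level.

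With this level trend removed from every array by a lowess curve, no subunit passed in limma (0 of 8). Of all genes, 1.01% were called lower and 2.28% higher there. At an unadjusted p under 0.05 were 4 of 8 subunits, against 5078 of all 22180 genes. The differences then ran from -1.10 for Cct6a (adjusted p = 0.32) to 0.46 for Cct5 (adjusted p = 0.17), with a median of -0.38. Cct8 differed by -1.0 (95% interval -1.75 to -0.26, adjusted p = 0.139), Cct4 by -0.65 (-0.98 to -0.31, adjusted p = 0.0731) and Cct3 by -0.46 (-0.81 to -0.12, adjusted p = 0.141). Cct7, at -0.18, and Cct2, at -0.29, had intervals that include 0. Tcp1 turned to 0.20 (adjusted p = 0.668). Cct3, Cct4, Cct6a and Cct8 lay below the curve in both ATRA arrays, Cct5 above it in both, and the other 3 on opposite sides. A narrower curve, chosen after the values were seen, follows the few genes of very high level more closely. It gave -0.76 for Cct2, -0.87 for Cct7 and 0.0037 for Cct5, again with 0 of 8 called by limma. At an unadjusted p under 0.05 were again 4 of 8, against 5046 of all 22180 genes.

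**Figure D3:**
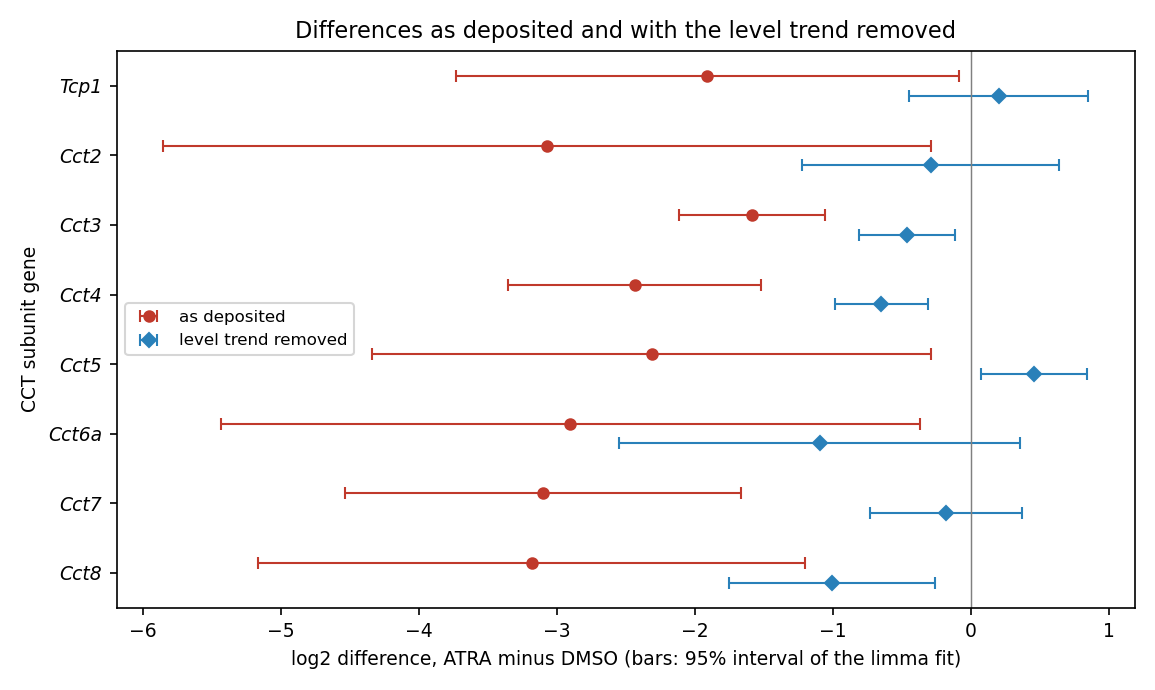
Log2 difference of ATRA minus DMSO (horizontal axis) for each CCT subunit gene, from the values as deposited (red circles) and with the trend on expression level removed (blue diamonds). Bars are 95% intervals of the limma fit. As deposited all 8 intervals lie below 0. With the trend removed, those of Cct3, Cct4 and Cct8 do, that of Cct5 lies above 0, and 4 include 0.

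The promoter windows of the subunit genes (250 bases before to 50 after the start site, from RefSeq, build GRCm38.p6) were searched because all of the transcripts were lower in both ATRA arrays, and 7 of the 8 genes had one. The GC box GGGCGG, a site of Sp1-type factors, was present on either strand in 7 of 7, against 35.9% of 27025 windows, 1 per gene. The windows of the subunits had GC contents of 47.3% to 67.7%, against a median of 52.7%. The CCAAT box was present in 4 of 7 (Tcp1, Cct3, Cct6a and Cct7), against 37.9%. The heat shock element pair GAANNTTC was in 0 of 7 (7.95% of all windows), the E-box CACGTG in 0 of 7 (7.24%) and the single retinoic acid receptor motif AGGTCA in 1 of 7, that of Cct2 (16%). Direct repeats of that motif spaced by 1, 2 or 5 bases were in 0 of 7, and in 0.0444%, 0.0074% and 0.0074% of all windows. All motifs were searched on both strands, and no GC box and CCAAT box overlap in the windows shown. Cct7, Cct2 and Cct5 are shown because they span the range from several boxes of both kinds to a single GC box. Capitals mark CCAAT and GGGCGG or their reverse complements, and each window reads 5′ to 3′ on the strand of the gene.
Cct7, chr6:85451255-85451554, plus strand: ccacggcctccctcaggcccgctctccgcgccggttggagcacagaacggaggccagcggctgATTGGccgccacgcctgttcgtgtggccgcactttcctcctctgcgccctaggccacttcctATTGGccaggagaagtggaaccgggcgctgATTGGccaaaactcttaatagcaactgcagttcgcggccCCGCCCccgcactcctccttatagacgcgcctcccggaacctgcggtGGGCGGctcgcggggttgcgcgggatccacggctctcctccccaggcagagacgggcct
Cct2, chr10:117063803-117064102, minus strand: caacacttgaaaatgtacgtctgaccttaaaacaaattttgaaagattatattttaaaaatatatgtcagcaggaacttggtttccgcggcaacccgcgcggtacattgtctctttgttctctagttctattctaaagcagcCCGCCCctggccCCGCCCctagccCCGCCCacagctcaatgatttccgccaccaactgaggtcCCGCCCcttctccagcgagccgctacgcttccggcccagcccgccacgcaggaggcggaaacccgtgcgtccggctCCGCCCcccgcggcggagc
Cct5, chr15:31601797-31602096, minus strand: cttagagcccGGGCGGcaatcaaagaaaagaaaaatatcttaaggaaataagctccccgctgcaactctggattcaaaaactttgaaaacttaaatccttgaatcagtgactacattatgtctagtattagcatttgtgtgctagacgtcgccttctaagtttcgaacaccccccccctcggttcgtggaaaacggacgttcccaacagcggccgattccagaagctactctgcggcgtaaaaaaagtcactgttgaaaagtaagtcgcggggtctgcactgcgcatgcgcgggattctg
In Cct7 the 3 CCAAT boxes begin 187, 125 and 95 bases before the start site. Cct2 holds 5 GC boxes and no CCAAT box, and Cct5 1 GC box, 240 bases before the start. The log2 differences of the 3 genes shown were -3.10 for Cct7, -3.07 for Cct2 and -2.31 for Cct5. With the level trend described above removed they were -0.18, -0.29 and 0.46. A link between the boxes and the differences was not tested.

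The cofactors, clients and relatives of CCT were at lower levels in DMSO than the subunits, so their differences cannot be set against those of the subunits directly. The median DMSO level was 7.31 for prefoldin and phosducin-like cofactors, 8.18 for tubulin folding cofactors, 8.37 for clients and 6.90 for relatives, against 9.85 for the subunits. With the level trend removed, the median differences of these lists were -0.12, 0.41, 0.06 and -0.30, against -0.38 for the subunits. The counts of calls below are to be read against 15.5% of all genes called lower, 6.48% called higher, and 52.8% called lower among genes with a DMSO mean of 8 or more.

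Of the 9 prefoldin and phosducin-like cofactor genes measured, 0 rose, 2 fell and 7 did not pass, with a median difference of -0.61. The share that fell, 2 of 9, is near the 15.5% of all genes. Pfdn2, a prefoldin subunit, was at 7.60 and 6.96 in the ATRA arrays, against 8.60, 8.58 and 8.64 in the DMSO arrays (log2 difference -1.33, adjusted p = 0.0232). Pdcl3, a phosducin-like protein that binds CCT, fell by 1.60 (adjusted p = 0.0421). Pfdn6 differed by -1.17 (adjusted p = 0.0769), and Vbp1, the prefoldin subunit 3, by -0.66 (adjusted p = 0.301). With the level trend removed, the fall of Pfdn2 became 0.10 and the difference of Pfdn6 became 0.84, which passed in the opposite direction (adjusted p = 0.0488). Of 5 tubulin folding cofactors, which take tubulin on from CCT, 0 rose, 2 fell and 3 did not pass (median -1.13). That share, 2 of 5, lies between those of all genes and of genes at a DMSO mean of 8 or more. Tbcd fell by 1.59 (adjusted p = 0.0236) and Tbcc fell by 1.13 (adjusted p = 0.0486). Arl2, the small GTPase that works with them, differed by -1.21 (adjusted p = 0.0946), and Tbca by 1.16 (adjusted p = 0.282), with ATRA values of 9.09 and 6.53 on both sides of DMSO values of 6.57 to 6.73. Arl2 differed by 0.41 with the trend removed, and neither Tbcd nor Tbcc kept its call there.

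Of 24 measured clients of CCT, 0 rose, 10 fell and 14 did not pass, with a median of -1.10. The share of clients that fell, 10 of 24, also lies between 15.5% and 52.8%. Among the tubulins, Tubb5, a widely expressed beta-tubulin, was at 8.64 and 6.52 in the ATRA arrays, against 11.94, 12.17 and 12.02 in the DMSO arrays (log2 difference -4.46, SE 0.66, adjusted p = 0.0179). Tuba8, an alpha-tubulin, fell by 2.48 (adjusted p = 0.00627). The mean of its 2 features gave -0.94 (adjusted p = 0.0206), and with the level trend removed it differed by -0.52 (adjusted p = 0.413). For actin, Actb was at 5.55 and 5.21 with ATRA, against 7.44, 7.61 and 8.0 with DMSO (difference -2.30, limma adjusted p = 0.00892). Both ATRA values lay below the median feature of 6.07. Actins and tubulins have close paralogs with shared sequence, so the values of single genes among them are uncertain. Of the WD-repeat clients, Gnb4, a G protein beta subunit, differed by -2.33 (adjusted p = 0.00767), Fzr1, an activator of the anaphase-promoting complex, by -1.80 (adjusted p = 0.00688) and Cdc20, its mitotic activator, by -1.34 (adjusted p = 0.0165). With the level trend removed, Actb (-1.52, adjusted p = 0.0369) and Tubb5 (-1.29, adjusted p = 0.0478) kept their calls, whereas Fzr1 was at 0.0045 and Cdc20 at 0.52, and 2 of the 24 clients were called lower and 1 higher.

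The list of CCT relatives held 0 called genes of 7 in limma (median -0.33), against 21.9% of all genes called in either direction. The list includes Hspe1, which encodes the lid of the mitochondrial chaperonin chamber and not a chaperonin subunit. At an unadjusted p under 0.05 were 2 of 7, against 8935 of all 22180 genes. Hspd1, the mitochondrial chaperonin Hsp60, was at 8.37 and 6.04 in the ATRA arrays, against 9.83, 9.82 and 9.69 in the DMSO arrays. Its difference of -2.58 (SE 0.72, limma adjusted p = 0.0683) did not pass. Its pattern over the arrays lay at a distance of 0.164 from the mean pattern of the 8 subunits, a measure described below. With the level trend removed, Hspd1 differed by -0.46 (limma adjusted p = 0.382). Mkks, a chaperonin-like protein of the primary cilium, differed by -0.48 (adjusted p = 0.0684), Bbs12 by -0.36 (adjusted p = 0.161) and Cct8l1 by 0.35 (adjusted p = 0.154). Hsf2, a heat shock factor, differed by -0.54 (adjusted p = 0.103).

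**Figure D4:**
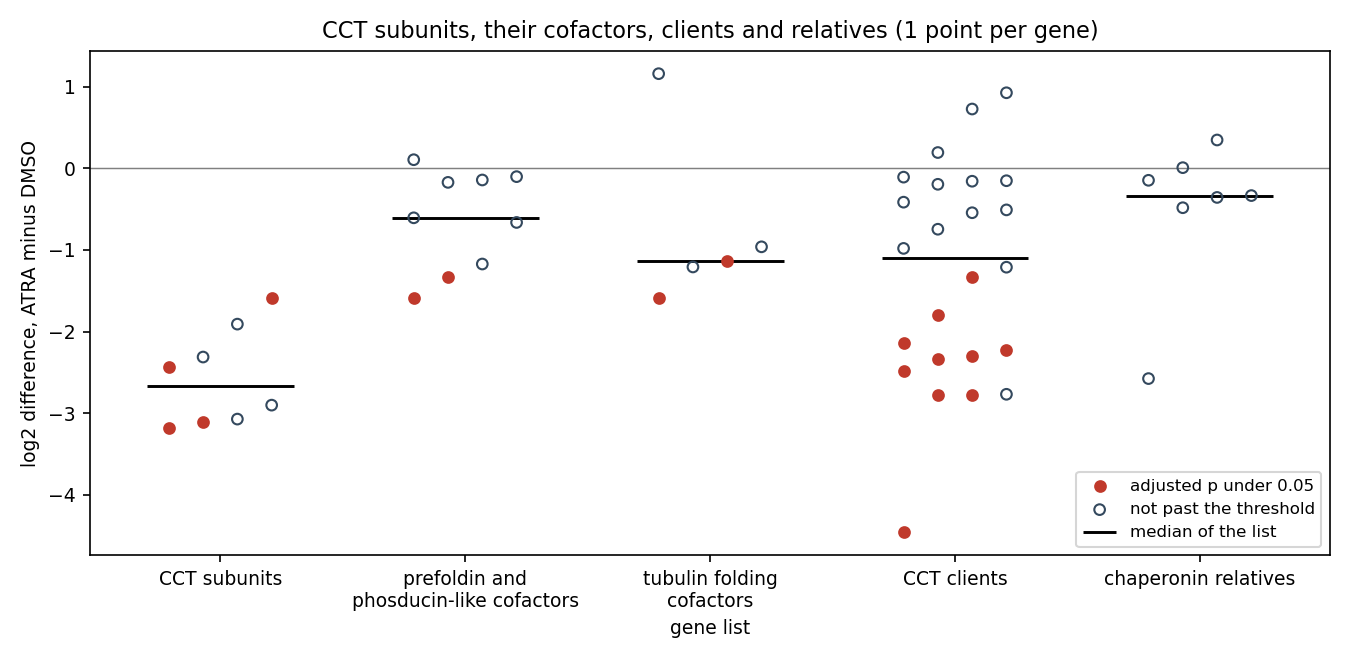
Log2 difference of ATRA minus DMSO (vertical axis) for every measured gene of 5 lists, 1 point per gene. Filled points have an adjusted p under 0.05, open points do not, and black lines are list medians. The medians are -2.67 for CCT subunits, -0.61 for prefoldin and phosducin-like cofactors, -1.13 for tubulin folding cofactors, -1.10 for clients and -0.33 for relatives, lists that also differ in their DMSO levels.

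The genes whose pattern over the 5 arrays was most like the mean of the 8 subunits were Gatad2b, Srrm2, Slc7a1, Eif6 and Parl, with the likeness measured as the Euclidean distance between deviations from each gene's own mean. Gatad2b is a subunit of the NuRD chromatin complex, Srrm2 a splicing factor of nuclear speckles, Slc7a1 a carrier of cationic amino acids, Eif6 a factor of the large ribosomal subunit and Parl a mitochondrial protease. Their distances were 0.0941 to 0.159, against 0.394 for Cct5, the nearest subunit, and 1.57 for Cct3, the farthest. The 5 genes had the smallest distances of all named genes outside the lists, clone and predicted names left out. The subunits were not picked by distance, so the smaller distances of the 5 follow from the search. By the same choice, all 5 had log2 differences between -2.51 and -2.60, near the subunit mean of -2.56. None passed (limma adjusted p = 0.0546 to 0.0632). Their DMSO means ran from 9.61 to 11.61. Genes with DMSO means from 9 to 10, 10 to 11 and 11 to 12 had median differences of -1.94, -2.35 and -2.36. With the level trend removed, the 5 genes differed by -0.21, 0.46, -0.49, -0.10 and 0.08, in the order named. The part of the level trend in this likeness was not tested. Gatad2b, the closest, was at 8.80 and 6.64 in the ATRA arrays, against 10.28, 10.34 and 10.25 in the DMSO arrays.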

How the data were processed

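The authors deposited log2 expression values, 1 per array feature and array. RMA, oligo 1.36.1 and limma 3.28.20 are named, with no role, per the submitters' processing notes; the sources used here do not give the genome build or annotation. Groups and replicate numbers come from the sample titles. Values were used as deposited. Of 41345 features, 23521 list 1 gene in GEO's platform annotation; 23328 of these matched the RefSeq table of GRCm38.p6 by gene identifier, which updated the symbols, and 1814 with several genes and 16010 unlisted ones named no gene. The 22180 genes were fitted with limma 3.58.1 (R 4.3.3; lmFit, eBayes, two-sided; 3 residual and 1.52 prior degrees of freedom). An exact permutation test of 2 against 3 arrays cannot go below p = 0.1.

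The level trend was a lowess curve (span 0.3; narrow alternative 0.05) of each array's difference from the DMSO mean. Named genes are the 8 subunits, the 4 members of smallest p of each related list, Hspd1, Hspe1, Actb, Tubb5, Cdc20, Kit, Procr, Mecom and the 5 nearest patterns; other genes in the closing section were chosen after their values were seen. Members and lists were chosen with earlier results of these data known. For genes with several promoter windows the first listed was used in the shares of all windows. For the subunits it was the window at the annotated start of the gene, a rule that differs for Cct2 and Cct5, which have 2 windows. Listed genes without a feature of their own, such as Pfdn4, were not analysed here. The number of arrays limits the precision.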

Additional observations from a re-analysis of the deposited data

How the results depend on the processing

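Against 4 CCT subunits called lower in limma, 0 were called with array weights (8 at an unadjusted p under 0.05), with a replicate block (5), and with the level trend removed by the wide or the narrow curve (4 each). Without any 1 DMSO array the count was also 0. It was 3 after quantile normalization, 4 after cyclic loess normalization and 6 at an adjusted p under 0.1. All 8 differences stayed negative under every setting except the removal of the trend, where Tcp1 (0.20, and 0.28 with the narrow curve) and Cct5 (0.46 and 0.0037) turned positive. The block rests on replicate numbers that 2 pairs of arrays share. DMSO replicate 3 has no partner there, and its value drops out of the blocked difference. Deviations of same-numbered arrays correlated at 0.13 and 0.10, and those of ATRA replicate 2 and DMSO replicate 3 at 0.071. The deviations of the 2 ATRA arrays are exact opposites, so these values are not separate checks of a pairing. Nothing in the labels says that a number marks a shared culture. With the block, 0 genes passed (limma, 5412 at an unadjusted p under 0.05).

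For all genes, 4865 calls became 7755 at an adjusted p under 0.1, 2275 after cyclic loess normalization, 2182 after quantile normalization, 728 and 673 with the trend removed by the wide and the narrow curve, and 0 with array weights (4377 at an unadjusted p under 0.05) or the block, with a range of 0 to 14207 when 1 array was left out. Centring each array on its median shifted the median gene from 0.16 to -0.11 and gave 4542 lower and 560 higher calls, against 3428 and 1437. The 10 clients called lower became 5 lower and 1 higher (6 in all) after cyclic loess, 5 lower after quantile normalization, 2 lower and 1 higher (3 in all) under either curve and 0 with array weights or the block (0 to 18 without 1 array). The 2 called prefoldin and phosducin-like genes became 1 (Pfdn6, higher) under either curve. They became 0 after cyclic loess, quantile normalization, array weights, the block or the removal of any 1 DMSO array. The 2 tubulin cofactors called lower became 1 lower and 1 higher after cyclic loess, where Tbcc lost its call (limma adjusted p = 0.219). They became 0 after quantile normalization, array weights, the block, either curve or the removal of any 1 DMSO array. The relatives went to 2 called at an adjusted p under 0.1, after cyclic loess and after centring. Without any 1 DMSO array they stayed at 0.

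Differences of other named genes that changed sign were, after cyclic loess, Pfdn6 0.45, Arl2 0.10, Cct8l1 -0.18, Bbs12 0.086, Hspe1 1.52 (called higher, limma adjusted p = 0.0189), Cdc20 0.16 and Procr 0.45. With the wide and the narrow curve they were Pfdn2 0.10 and 0.11, Pfdn6 0.84 and 0.90, Fzr1 0.0045 and 0.058, Arl2 0.41 and 0.44, Cct8l1 -0.17 and -0.16, Bbs12 0.19 and 0.19, Hspe1 1.70 and 1.75, Cdc20 0.52 and 0.58, and Procr 0.50 and 0.50, and with the wide curve alone Srrm2 0.46 and Parl 0.077. After quantile normalization they were Cct8l1 -0.077, Hspe1 0.54 and Procr 0.18. Without ATRA replicate 1 or 2, Tbca was at -0.12 or 2.44, Vbp1 at -1.41 or 0.087 and Hspe1 at -1.24 or 0.94. The cause of these changes was not tested.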

Other observations

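The partner genes of the mitochondrial chaperonin differed unequally. Hspe1, which encodes the lid of the Hsp60 chamber, was at 10.23 and 8.05 in the ATRA arrays, against 9.46, 9.21 and 9.21 in the DMSO arrays, a difference of -0.15 (SE 0.68, limma adjusted p = 0.868). After cyclic loess normalization it was called higher (1.52, limma adjusted p = 0.0189), and with the level trend removed it was at 1.70 (adjusted p = 0.0606). Hspd1, its chamber, was lower in both ATRA arrays. The within-array log2 ratio of Hspe1 to Hspd1 lay above its DMSO mean by 2.35 in ATRA replicate 1 and by 2.50 in replicate 2, with DMSO arrays between -0.13 and 0.12 of that mean. A like pattern held for the actin clients of CCT. Actg1 was at 8.42 and 7.97 with ATRA, against 8.38 to 8.42 with DMSO (difference -0.20, limma adjusted p = 0.385). With the level trend removed it was called higher, at 1.09 with the wide curve (limma adjusted p = 0.0315) and 1.12 with the narrow one (adjusted p = 0.0307). Its log2 ratio to Actb lay 2.17 and 2.05 above the DMSO mean in the ATRA arrays, with DMSO arrays between -0.33 and 0.23. The Actb values in the ATRA arrays, 5.55 and 5.21, lay below the median feature of 6.07, which limits this ratio.

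Among the alpha-tubulins, Tuba1b was at 10.96 and 6.49 in the ATRA arrays, against 11.80, 11.42 and 11.25 in the DMSO arrays (limma adjusted p = 0.199). Tuba1c was at 10.77 and 11.57 with ATRA, against 11.03, 11.09 and 10.81 with DMSO (limma adjusted p = 0.584). Their log2 ratio, Tuba1c to Tuba1b, lay 0.32 above its DMSO mean in ATRA replicate 1 and 5.60 above it in replicate 2. These ratios were chosen after their values were seen and were not tested.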
